A study of Drosophila melanogaster with 15 samples.

Results

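The genes described here encode neuropeptides and peptide hormones of Drosophila melanogaster, and were followed in nuclear RNA of the mushroom body, the brain structure in which flies form odour memories. They were chosen by name, as the rows of the count files whose FlyBase identifier carries 1 of 39 listed symbols. Of the 39 listed genes, 38 had an identifier among the 17559 of each file, and 30 could be measured. Nplp2 had no matching identifier and was not analysed here.

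Neuropeptides are cut from larger precursor proteins, loaded into dense-core vesicles and released to act on G protein-coupled or guanylyl cyclase receptors, often at a distance. In the fly brain they set feeding, sleep, water balance, moulting behaviour and metabolic state. The intrinsic neurons of the mushroom body, the Kenyon cells, are known for short neuropeptide F, which many of them make beside acetylcholine. Most other fly neuropeptides are known from small sets of neurons or endocrine cells elsewhere, so the bulk libraries cannot tell fewer cells of a type from less RNA per cell.

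Nuclei had been purified from males by INTACT, an affinity method for nuclei with a tagged envelope protein. All groups carried the tag UAS-unc84::GFP and the driver R14H06-Gal4, which also drove the hairpin, so that tagging and RNAi took place in the same cells. Knockdown flies carried the hairpin line UAS-Bap6032503 against Bap60, which belongs to the nucleosome-remodelling SWI/SNF complex, and control flies a hairpin against mCherry, which flies do not have. Mature flies were 1 to 5 days past eclosion, with 5 knockdown and 5 control libraries. Juvenile flies were 0 to 3 hours past eclosion, with 2 knockdown and 3 control libraries. Whether replicate libraries were prepared from different flies is not stated in the labels, and the p-values below then reflect only library-to-library spread, which may be technical. The 2 genotypes differ in their hairpin, and anything else that came with it cannot be told apart from the loss of Bap60 itself.

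Reads assigned to genes numbered 17447070 to 37563455 per mature knockdown library, 18173548 to 70495790 per mature control, 45547974 to 53143845 per juvenile knockdown and 37879789 to 45731087 per juvenile control. Levels below are CPM, the counts of a library scaled to a common total, on the scale of TMM, a between-library scaling that assumes most genes do not change. Bap60 averaged 11.2 ± 2.69 CPM in mature knockdown libraries and 17.3 ± 2.61 CPM in mature controls (SD, n = 5 each), without overlap, yet it missed the threshold (log2 fold change -0.63, SE 0.17, edgeR adjusted p = 0.258). In juvenile flies Bap60 averaged 6.31 ± 1.84 CPM in 2 knockdown libraries and 9.48 ± 3.75 CPM in 3 controls, and these groups overlapped (adjusted p = 0.718, edgeR). All 16 Kenyon cell markers were detected, with summed levels between 12600 and 22200 CPM in the 15 libraries. Markers of photoreceptors, fat body and muscle were present too, and muscle markers alone summed to between 4130 and 23300 CPM. The spread between replicates was smaller in mature than in juvenile flies, with biological coefficients of variation of 0.221 in mature and 0.841 in juvenile flies.

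Whether a peptide gene could be measured depended first on where it lies. The leucokinin gene Lk, the ecdysis triggering hormone gene ETH, the drosulfakinin gene Dsk, the memory gene amn and the insulin-like peptide genes Ilp2, Ilp3, Ilp5 and Ilp6 were listed at 0 in all 15 libraries. Each of these 8 genes lies wholly inside the span of another gene. Ilp2 and Ilp3 lie within CG32052, Ilp5 within CG43897, Ilp6 within Raf and amn within Hers. Lk, ETH and Dsk lie within noncoding or antisense transcripts or, for Lk, also within CG34039. The same held for the whole annotation. Of 1845 protein-coding genes whose span lies inside other genes, 1832 (99.295%) were at 0 in every library. Among 7395 protein-coding genes that overlap no other gene, 209 (2.826%) were at 0. Nested genes were at 0 whether the surrounding gene ran on the opposite strand (831 of 834 with exons free of other exons) or on the same strand (349 of 349). The files therefore behave as counts over whole gene spans that ignore strand and leave out shared positions, and the 8 zeros say nothing about expression.

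**Figure D1:**
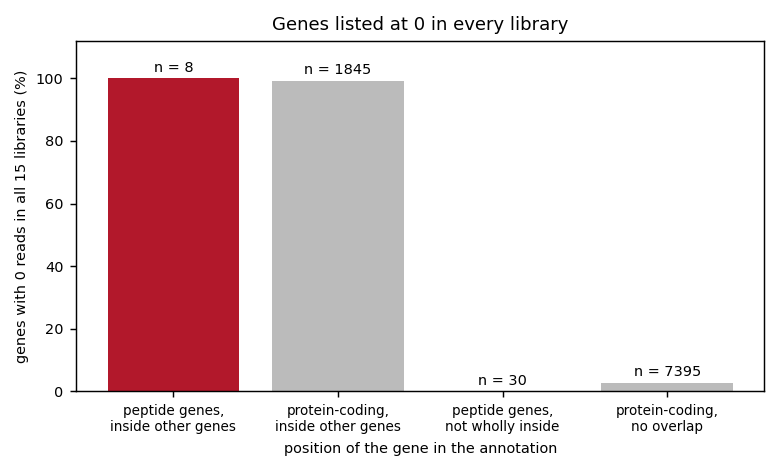
Percentage of genes with 0 reads in all 15 libraries (y axis) for peptide genes and for protein-coding genes, by whether the whole gene span lies inside other genes. All 8 nested peptide genes and 99.295% of 1845 nested protein-coding genes were at 0, against 2.826% of 7395 protein-coding genes without overlap; none of the 30 other peptide genes was at 0 throughout.

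Some of the 30 measurable genes are partly hidden in the same way. Of the span of ITP, 87.647% lies in genes of the opposite strand, as does 37.517% of that of Tk, 19.204% of that of SIFa and 9.397% of that of Dh44. Their values come from the remainder, and reads of the 2 strands there cannot be told apart. Levels of different genes are compared below per kb of span outside other genes, since intronic reads were counted.

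A few genes made up most of the peptide precursor RNA. Nplp3, which encodes a neuropeptide-like precursor, had the highest mean over the 15 libraries per kb, at 1050 CPM per kb. Next came sNPF, the short neuropeptide F precursor, at 30.8 CPM per kb and ITP, the ion transport peptide precursor, at 22.7 CPM per kb. Proc, which encodes proctolin, had 11.4 CPM per kb and Nplp1, another neuropeptide-like precursor, 10.6 CPM per kb. Ms, the myosuppressin precursor, had 9.01 CPM per kb, and no other measurable member exceeded the 7.25 CPM per kb of SIFa. The order depends on the length used, since per kb of exon ITP ranked 12 among the 30 and not 3, while Nplp3 and sNPF kept ranks 1 and 2. By plain level sNPF led with a mean of 877 CPM over the 15 libraries, followed by Nplp3 with 698 CPM.

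Together the 30 genes summed to 2080 to 2540 CPM in mature knockdown libraries, 1830 to 2230 CPM in mature controls, 1180 and 1590 CPM in juvenile knockdown and 1810 to 2060 CPM in juvenile controls. Both juvenile knockdown sums lay below those of all other libraries. In juvenile knockdown libraries sNPF gave 29.1% and 38.4% of the sum, against 46.3% to 57% in juvenile controls.

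**Figure D2:**
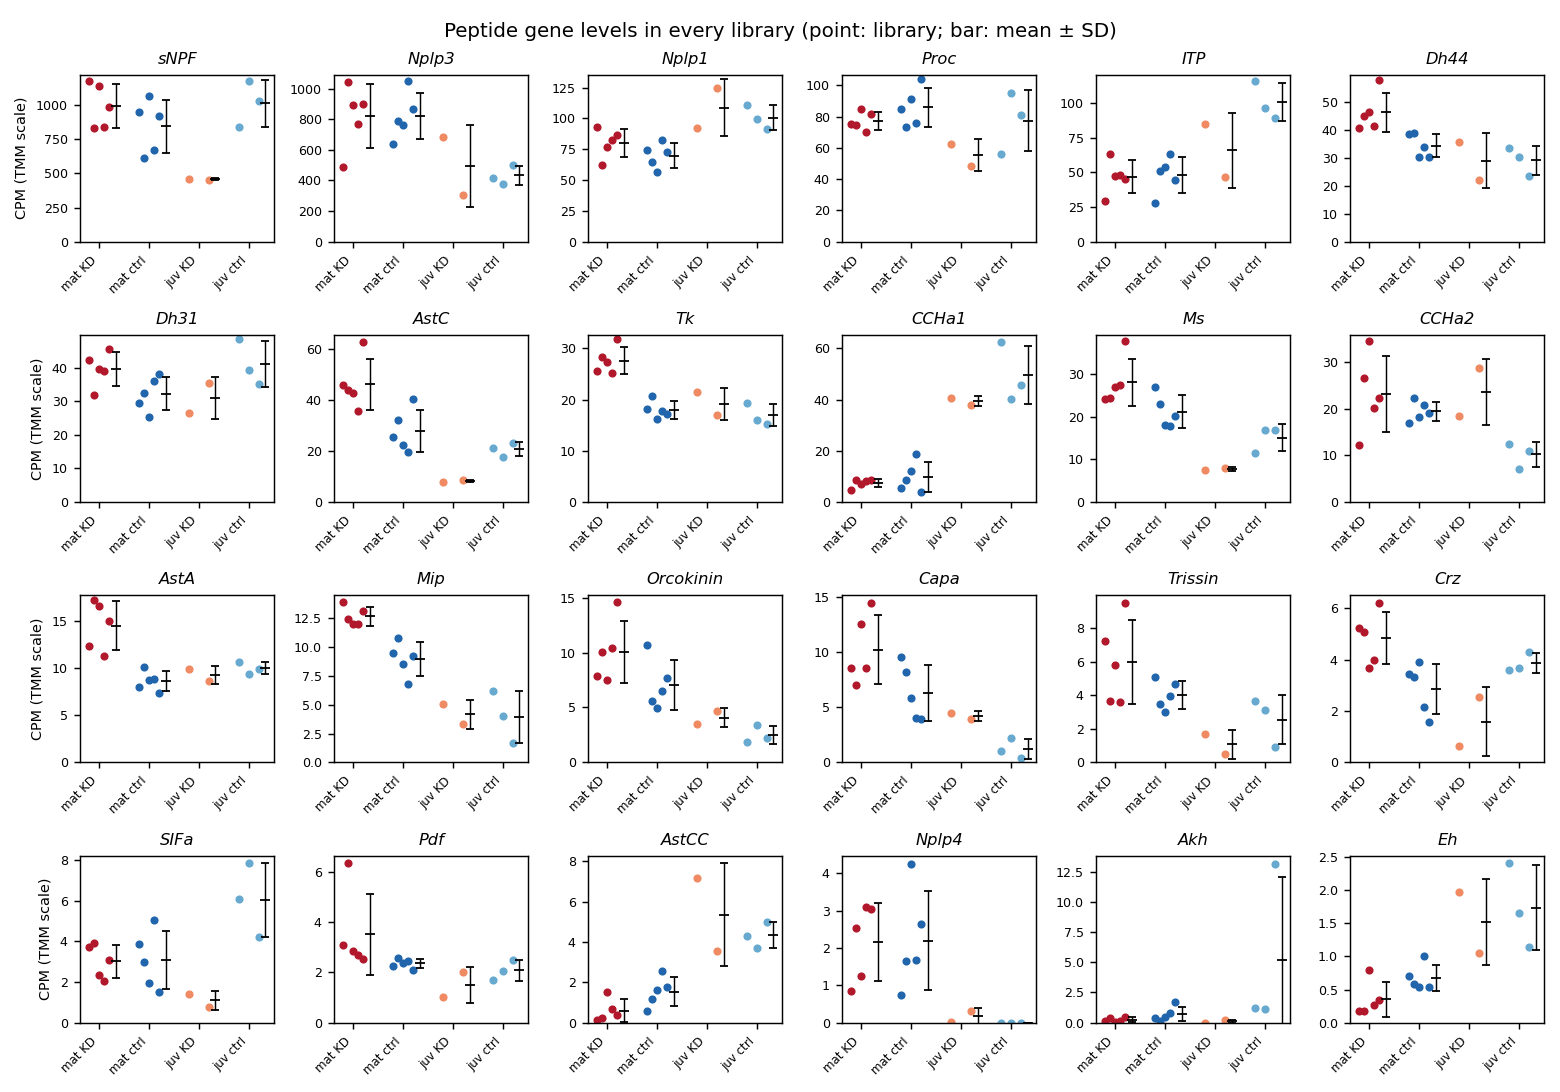
Level in CPM on the TMM scale (y axis, from 0, scaled per gene) of 24 peptide genes in each library, grouped as mature Bap60 knockdown (mat KD), mature control (mat ctrl), juvenile knockdown (juv KD) and juvenile control (juv ctrl). Points are libraries and bars the mean ± SD; sNPF, AstC and Ms are lowest in juvenile knockdown, Tk, AstA and Dh44 highest in mature knockdown, and CCHa1 and AstCC high in all juvenile libraries.

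The peptide most closely tied to Kenyon cells stood apart in 1 group. sNPF (chromosome 2L, 20027915 to 20056373, plus strand, BDGP6.54) had 1180, 836, 1140, 839 and 984 CPM in mature knockdown libraries, 947, 616, 1070, 670 and 923 CPM in mature controls, 461 and 452 CPM in juvenile knockdown, and 837, 1180 and 1030 CPM in juvenile controls. Both juvenile knockdown libraries lay below all 13 others, which overlapped one another across the 3 remaining groups. These values rest on 12042 to 74591 reads per library.

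Of the other abundant precursors, Nplp3 (chromosome 3L, 16318024 to 16318690) had 486, 1040, 895, 771 and 897 CPM in mature knockdown, 639, 789, 761, 1050 and 864 CPM in mature controls, 683 and 304 CPM in juvenile knockdown, and 417, 379 and 502 CPM in juvenile controls. All mature controls exceeded all juvenile controls, while the knockdown groups of the 2 ages overlapped. Nplp1 had 92.8, 62.2, 77.1, 82.4 and 86.4 CPM in mature knockdown, 74, 64.2, 56.3, 82.2 and 72.4 CPM in mature controls, 92.3 and 125 CPM in juvenile knockdown, and 111, 99.2 and 91 CPM in juvenile controls. It was the reverse of Nplp3, with every mature control below every juvenile control. Proc, whose product proctolin stimulates muscle contraction, had 75.1, 74.4, 84.7, 70.1 and 81.7 CPM in mature knockdown, 84.7, 73.5, 91.4, 75.8 and 104 CPM in mature controls, 62.6 and 48.1 CPM in juvenile knockdown, and 56.1, 95 and 81.2 CPM in juvenile controls. Knockdown and control overlapped for Proc at both ages.

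Of the allatostatins and the muscle-inhibiting peptides, all but AstA varied more between libraries than each of the abundant precursors just described. AstA, whose peptides restrain feeding, had 12.4, 17.3, 16.6, 11.3 and 15 CPM in mature knockdown, 8.07, 10.2, 8.78, 8.84 and 7.38 CPM in mature controls, 9.95 and 8.61 CPM in juvenile knockdown, and 10.7, 9.39 and 9.98 CPM in juvenile controls. Every mature knockdown library exceeded all 10 others. AstC and AstCC are neighbouring genes on the minus strand of chromosome 2L (11076165 to 11081399 and 11083459 to 11085229) that encode related peptides, and they did not vary together. AstC had 45.9, 43.9, 42.6, 35.7 and 62.8 CPM in mature knockdown, 25.3, 32.2, 22.2, 19.5 and 40.2 CPM in mature controls, 7.83 and 8.63 CPM in juvenile knockdown, and 21, 17.8 and 23.3 CPM in juvenile controls. AstCC had 0.114, 0.253, 1.54, 0.698 and 0.398 CPM in mature knockdown, 0.563, 1.18, 1.63, 2.56 and 1.78 CPM in mature controls, 7.15 and 3.56 CPM in juvenile knockdown, and 4.29, 3.71 and 4.99 CPM in juvenile controls. Juvenile knockdown was lowest of the 4 groups for AstC, whereas for AstCC all 5 juvenile libraries exceeded all mature ones.

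Ms, whose product quiets visceral muscle, had 24.2, 24.5, 26.9, 27.4 and 37.7 CPM in mature knockdown, 26.9, 23, 18, 17.9 and 20.2 CPM in mature controls, 7.47 and 8.07 CPM in juvenile knockdown, and 11.4, 17 and 16.9 CPM in juvenile controls. Its order was that of AstC, with juvenile knockdown below everything else and the mature groups overlapping. Mip, which encodes the myoinhibitory peptides that act on the sex peptide receptor SPR, had 13.9, 12.4, 12, 12 and 13.1 CPM in mature knockdown, 9.48, 10.8, 8.52, 6.84 and 9.26 CPM in mature controls, 5.08 and 3.29 CPM in juvenile knockdown, and 6.21, 3.99 and 1.68 CPM in juvenile controls. The mature groups lay apart from each other and above all juvenile libraries, and the juvenile groups overlapped.

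Among the diuretic and antidiuretic hormones, Dh44, the relative of corticotropin-releasing factor, had 40.6, 44.9, 46.5, 41.5 and 57.8 CPM in mature knockdown, 38.4, 38.8, 30.2, 34 and 30.4 CPM in mature controls, 35.8 and 21.9 CPM in juvenile knockdown, and 33.5, 30.2 and 23.5 CPM in juvenile controls. As for AstA, the 5 mature knockdown libraries were the 5 highest. Dh31, the calcitonin-like hormone, had 42.4, 31.8, 39.6, 39.1 and 45.8 CPM in mature knockdown, 29.6, 32.6, 25.5, 36 and 38.2 CPM in mature controls, 26.6 and 35.5 CPM in juvenile knockdown, and 48.7, 39.4 and 35.2 CPM in juvenile controls. It was the most even of the measurable members, its highest library being 1.91 times its lowest, and knockdown overlapped control at both ages. ITP had 29.4, 62.8, 47.4, 48.3 and 45.4 CPM in mature knockdown, 27.7, 51.1, 53.7, 63.4 and 44.2 CPM in mature controls, 85 and 46.7 CPM in juvenile knockdown, and 116, 96.6 and 89.2 CPM in juvenile controls. The 3 juvenile controls were the highest libraries for ITP. Capa, the precursor of peptides that act on the renal tubules, had 8.55, 7.08, 12.6, 8.59 and 14.5 CPM in mature knockdown, 9.62, 8.2, 5.83, 4 and 3.93 CPM in mature controls, 4.53 and 3.9 CPM in juvenile knockdown, and 1.02, 2.23 and 0.42 CPM in juvenile controls. Juvenile controls were lowest for Capa and did not overlap any other group.

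Peptides of feeding and metabolism followed several patterns. Tk, the tachykinin precursor (chromosome 3R, 11994175 to 12005473), had 25.5, 28.3, 27.4, 25.2 and 31.8 CPM in mature knockdown, 18.1, 20.8, 16.2, 17.7 and 17.1 CPM in mature controls, 21.4 and 17 CPM in juvenile knockdown, and 19.4, 16.1 and 15.3 CPM in juvenile controls. The 5 mature knockdown libraries again exceeded all others. CCHa1 had 4.73, 8.55, 7.03, 8.33 and 8.56 CPM in mature knockdown, 5.35, 8.54, 12.3, 18.9 and 4.09 CPM in mature controls, 40.7 and 38 CPM in juvenile knockdown, and 62.4, 40.4 and 45.9 CPM in juvenile controls, so that every juvenile library exceeded every mature one. CCHa2, known as a nutrient signal from the periphery to the insulin-producing cells, had 12.1, 26.5, 34.4, 20.2 and 22.3 CPM in mature knockdown, 17, 22.2, 18.2, 20.7 and 19.1 CPM in mature controls, 18.5 and 28.6 CPM in juvenile knockdown, and 12.5, 7.16 and 10.9 CPM in juvenile controls. Juvenile controls were the low group for CCHa2, and 1 mature knockdown library reached into their range.

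SIFa, Crz and Akh are feeding and stress peptides of small cell groups, and Akh was barely detected. SIFa, made by a few neurons of the pars intercerebralis, had 3.71, 3.92, 2.34, 2.05 and 3.09 CPM in mature knockdown, 3.85, 3, 1.94, 5.06 and 1.51 CPM in mature controls, 1.43 and 0.773 CPM in juvenile knockdown, and 6.07, 7.85 and 4.2 CPM in juvenile controls. Crz, the corazonin precursor, had 5.25, 5.1, 3.68, 4.01 and 6.22 CPM in mature knockdown, 3.43, 3.31, 3.91, 2.17 and 1.56 CPM in mature controls, 0.637 and 2.54 CPM in juvenile knockdown, and 3.61, 3.66 and 4.31 CPM in juvenile controls. For both genes juvenile knockdown lay below juvenile control without overlap. Akh, the adipokinetic hormone of the corpora cardiaca, had 0.114, 0.379, 0.0571, 0.174 and 0.498 CPM in mature knockdown, 0.422, 0.168, 0.457, 0.779 and 1.72 CPM in mature controls, 0 and 0.198 CPM in juvenile knockdown, and 1.24, 1.11 and 13.1 CPM in juvenile controls. Juvenile control 3, with 564 Akh reads, stood far above every other library.

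Of the peptides of clock, rhythm and moulting, Pdf, the transmitter of clock neurons, had 3.08, 6.36, 2.83, 2.7 and 2.54 CPM in mature knockdown, 2.25, 2.58, 2.38, 2.45 and 2.1 CPM in mature controls, 1 and 2 CPM in juvenile knockdown, and 1.68, 2.06 and 2.49 CPM in juvenile controls. Mature knockdown 2 was far above the other libraries for Pdf. Orcokinin had 7.87, 10.1, 7.54, 10.4 and 14.6 CPM in mature knockdown, 10.7, 5.56, 4.95, 6.51 and 7.7 CPM in mature controls, 3.48 and 4.67 CPM in juvenile knockdown, and 1.88, 3.39 and 2.21 CPM in juvenile controls, with all mature libraries above all juvenile ones. Trissin had 7.24, 3.67, 5.83, 3.62 and 9.51 CPM in mature knockdown, 5.07, 3.45, 3.03, 3.95 and 4.68 CPM in mature controls, 1.68 and 0.467 CPM in juvenile knockdown, and 3.63, 3.12 and 0.886 CPM in juvenile controls. Juvenile knockdown lay below both mature groups for Trissin, and no other groups lay apart. Eh, the eclosion hormone that starts the shedding of the old cuticle, had 0.171, 0.169, 0.8, 0.262 and 0.348 CPM in mature knockdown, 0.704, 0.59, 0.543, 1 and 0.538 CPM in mature controls, 1.98 and 1.06 CPM in juvenile knockdown, and 2.41, 1.66 and 1.14 CPM in juvenile controls. All 10 mature libraries lay below all 5 juvenile ones for Eh. Nplp4, another small neuropeptide-like precursor, had 0.855, 2.53, 1.26, 3.1 and 3.04 CPM in mature knockdown, 0.751, 1.66, 4.26, 1.67 and 2.64 CPM in mature controls, 0.0228 and 0.324 CPM (1 and 18 reads) in juvenile knockdown, and 0 in all 3 juvenile controls. Its mature and juvenile libraries did not overlap.

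The 6 other measurable members were low, and none was called in the 5 contrasts below. Only in a few alternative fits were CCAP and FMRFa called with age. NPF, known for feeding and reward, averaged 5.1 ± 1.35 CPM in mature knockdown (n = 5), 3.52 ± 0.544 CPM in mature controls (n = 5), 4.77 ± 0.267 CPM in juvenile knockdown (n = 2) and 2.92 ± 1.33 CPM in juvenile controls (SD, n = 3). Group means of FMRFa, CCAP, CNMa and Ilp7 all lay under 5 CPM. RYa had 30 reads in all 15 libraries, of which 23 were in juvenile control 2, and was never tested.

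Knockdown in mature flies raised 1 peptide gene past the threshold. Tk was higher in knockdown (log2 fold change 0.62, SE 0.10, edgeR quasi-likelihood adjusted p = 0.0392), while the other 27 of 28 members tested were not called. In this comparison 14 of 9196 genes, 0.152%, were called at an adjusted p under 0.05, and 0.0652% were called higher. When each library was left out in turn, the call for Tk held only without mature control 2 or mature knockdown 1 and was lost in the other 8 fits. It was also lost under upper-quartile scaling and when all 15 libraries shared 1 fit (adjusted p = 0.0958, edgeR).

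Several other members leaned the same way in mature flies, but 10 of the 28 tested had a negative log2 fold change. Knockdown did not overlap control, on the higher side, for Tk, AstA, Dh44 and Mip, and did so on the lower side for no member. Of all genes tested, 0.87% lay apart on the higher and 1.26% on the lower side. The log2 fold change was 0.74 for AstA (SE 0.14, edgeR adjusted p = 0.0706), 0.43 for Dh44 (SE 0.12, adjusted p = 0.281) and 0.49 for Mip (SE 0.13, adjusted p = 0.207). AstC stood at 0.73 (SE 0.20, adjusted p = 0.28) and sNPF at 0.24 (SE 0.16, adjusted p = 0.676). The median of the 28 members was 0.35 on the log2 scale, beside -9e-04 over all genes tested. Of the 28 values 18 (64.3%) were positive, beside 49.8% over all genes tested. The negative ones included AstCC at -1.26 (SE 0.56, edgeR adjusted p = 0.515) and Eh at -0.84 (SE 0.46, adjusted p = 0.599). At an unadjusted p under 0.05, 14 members were higher and 1 lower, and so were 852 of the 9196 genes in either direction.

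Mature libraries with the same replicate number deviated together, with correlations of 0.163 to 0.69, and were also compared as pairs. The labels do not state what the numbers mark, so the pairing rests on these same counts. It was uneven, since mature knockdown 2 went more with mature control 4 (0.45) than with mature control 2 (0.382). With the number as a block in the fit, 122 genes were called, 0.522% of those tested being higher, and 3 members were higher in knockdown. These were AstC (log2 fold change 0.75, SE 0.09, edgeR adjusted p = 0.00628), Tk (0.62, SE 0.10, adjusted p = 0.0178) and AstA (0.74, SE 0.12, adjusted p = 0.0219). sNPF was at 0.25 in that fit (SE 0.06, adjusted p = 0.0796). Knockdown exceeded control in all 5 pairs for 9 of 28 members tested, and for 8.31% of all genes tested. These were sNPF, AstA, AstC, NPF, Tk, Dh44, Pdf, Mip and FMRFa. It lay below control in all 5 pairs for AstCC alone among the members, and for 8.53% of all genes tested. AstCC was at -1.53 in the paired fit (SE 0.42, edgeR adjusted p = 0.0989). DESeq2 called 4 members higher in knockdown (Tk, AstA, AstC and Mip) and 0.402% of all genes, and limma-voom also 4 (Tk, AstA, Dh44 and Mip) and 0.37% of all genes. Summed Kenyon cell markers were at 16300 to 22200 CPM in mature knockdown and 14500 to 21300 CPM in mature controls, and none of the 16 had an unadjusted p under 0.05. Markers of other neurons leaned the same way as the peptide genes. Of 10 tested, 9 had a positive log2 fold change, with a median of 0.30, and at an unadjusted p under 0.05 edgeR had 7 higher and 1 lower, none of which passed the adjusted threshold. Their summed level overlapped, at 1330 to 1850 CPM in mature knockdown and 1170 to 2560 CPM in mature controls. The part of this shift in the peptide values was not tested.

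**Figure D3:**
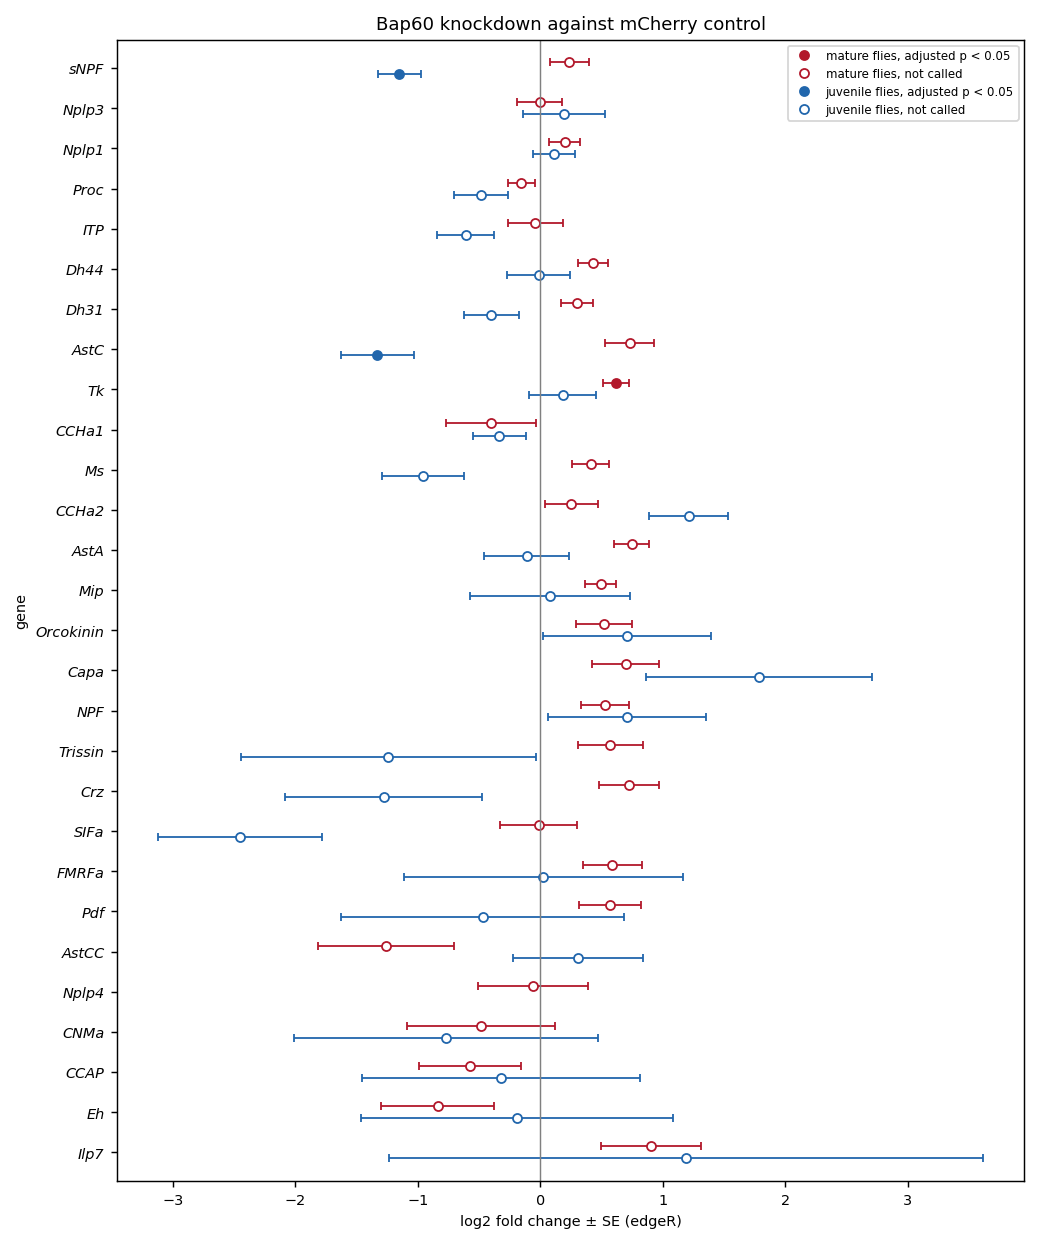
Log2 fold change of knockdown against control ± SE (x axis, edgeR) for peptide genes (y axis, by mean level), with mature flies above and juvenile flies below in each row. Filled points passed an adjusted p under 0.05: Tk in mature flies (0.62), sNPF (-1.15) and AstC (-1.33) in juvenile flies; Akh in juvenile flies (-5.62, not called) is left out because it would stretch the axis.

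Knockdown in juvenile flies went the other way for the leading peptides. sNPF was lower in knockdown (log2 fold change -1.15, SE 0.18, edgeR adjusted p = 0.00392), a 2.22-fold difference, and so was AstC (-1.33, SE 0.30, adjusted p = 0.0262). No member of the 28 tested was called higher, while 1 had an unadjusted p under 0.05 on that side in edgeR. CCHa2 was called higher by DESeq2, by limma-voom and by edgeR with upper-quartile scaling, with no filter, with the replicate block, in the fit on 15 libraries and without juvenile knockdown 1. Capa and Nplp4 were called higher in the fit on 15 libraries only. Over all genes, 354 of 11712 genes, 3.02%, were called, 1.01% higher and 2.02% lower. Leaving out juvenile control 2 or 3 ended the call for sNPF, and leaving out any of the 5 libraries ended that for AstC, with log2 values of -1.27 to -1.03 for sNPF and -1.43 to -1.24 for AstC.

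With 2 libraries against 3, groups often lie apart, as they did for 15.6% of the genes tested on the lower and 14.9% on the higher side. Nplp4, not tested in the fit on juvenile libraries, lay apart on the higher side, with 1 and 18 reads against 0 in controls. Among the 28 members tested, 7 were lower without overlap (sNPF, AstC, Ms, SIFa, Akh, ITP and Crz) and 4 higher (CCHa2, Capa, Orcokinin and NPF). Those short of the threshold included SIFa at a log2 fold change of -2.45 (SE 0.67, edgeR adjusted p = 0.0632), CCHa2 at 1.21 (SE 0.32, adjusted p = 0.0588) and Ms at -0.96 (SE 0.33, adjusted p = 0.163). Akh was at -5.62 (SE 1.86, adjusted p = 0.204), a value set by the 564 reads of juvenile control 3. The median of the members was -0.26, beside -0.02 over all genes tested.

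Of 13 peptide processing genes tested in juvenile flies, 2 were called lower in knockdown and none higher, beside 2.02% and 1.01% of all genes tested. amon, the prohormone convertase that cuts most fly neuropeptide precursors, had 272 and 362 CPM in juvenile knockdown, against 490, 596 and 567 CPM in juvenile controls. It was lower in knockdown (log2 fold change -0.80, SE 0.17, edgeR adjusted p = 0.0199), and so was 7B2, the chaperone of that enzyme (-0.84, SE 0.20, adjusted p = 0.0364). Both calls were lost without juvenile knockdown 1 or any 1 of the juvenile controls, and that for 7B2 also with RLE or upper-quartile scaling. dimm, the transcription factor of peptidergic cells, averaged 3.96 ± 0.521 CPM in juvenile knockdown (n = 2) and 1.34 ± 0.172 CPM in juvenile controls (SD, n = 3) and was not called (adjusted p = 0.474, edgeR). Of 37 receptor genes tested, Proc-R, the proctolin receptor, was called, with 77 and 74.9 CPM in juvenile knockdown, against 43.7, 25.2 and 38.2 CPM in juvenile controls (log2 fold change 1.09, SE 0.22, adjusted p = 0.013), and this call was lost without any 1 of the juvenile controls. sNPF-R, the receptor of short neuropeptide F, was at 0.29 (SE 0.16, adjusted p = 0.49).

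Cell type markers differed between the juvenile groups as well. Of all genes tested in this comparison, 2.02% were called lower and 1.01% higher in knockdown. At an unadjusted p under 0.05 in edgeR were 1615 of the 11712 genes, in either direction. Kenyon cell markers summed to 12600 and 13000 CPM in juvenile knockdown, against 13500 to 19200 CPM in juvenile controls, and 4 of 16 (Pka-C1, Dop1R1, jdp and prt) were called lower. Photoreceptor markers summed to 2990 and 3770 CPM in knockdown, against 4790 to 5540 CPM in controls, with 5 of 9 called lower. Markers of other neurons summed to 1530 and 2890 CPM in knockdown, against 3840 to 4400 CPM in controls, with 3 of 10 lower at an unadjusted p under 0.05 in edgeR and none called. Muscle markers summed to 14900 and 18100 CPM in knockdown, against 8700 to 11900 CPM in controls, with 2 of 9 called higher. Glial markers summed to 1190 and 1440 CPM in knockdown and 1450 to 1520 CPM in controls, and fat body markers to 456 and 464 CPM in knockdown and 356 to 412 CPM in controls. These fat body sums are mostly apolpp and Apoltp, and all 8 fat body markers had a positive log2 fold change, with a median of 1.70 and Lsd-1 called higher. The markers alrm, moody, Tdc2 and Arr2 lie inside other genes and read 0. The part of these shifts in the lower sNPF and AstC was not tested.

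The knockdown effect on 3 peptide genes differed between the ages by a test of the difference itself. The effect in mature flies minus that in juvenile flies was 2.06 on the log2 scale for AstC (SE 0.33, edgeR adjusted p = 0.00639), 1.39 for sNPF (SE 0.27, adjusted p = 0.0164) and 1.37 for Ms (SE 0.29, adjusted p = 0.0217). All 3 were positive, as was the difference for 18 of the 29 members tested, and 1.55% of 12033 genes were called in this comparison, 1.27% with a positive difference. amon differed in the same direction (0.98, SE 0.23, adjusted p = 0.0419), but its call was lost in 9 of 15 fits that left out a library, with RLE and upper-quartile scaling, with limma-voom and with the replicate block. None of the 37 receptor genes was called, by edgeR, where 4 had an unadjusted p under 0.05, or by DESeq2. The edgeR fit assumed 1 spread for both ages. With a separate weight for each age in limma-voom none of the 3 members passed (adjusted p = 0.28 for sNPF, 0.247 for AstC and 0.296 for Ms), and without either juvenile knockdown library the calls for sNPF and Ms were lost. In the same contrast 15 of 16 Kenyon cell markers were positive, with a median of 0.42 and 1 called. Photoreceptor markers were positive for 8 of 9 (median 0.86, none called, 6 at an unadjusted p under 0.05 in edgeR), and fat body markers had a median of -1.62 with 1 called lower. The part of these shifts in the difference for the 3 peptide genes was not tested.

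In knockdown flies, more peptide genes were called higher than lower in mature against juvenile libraries. Of 29 members tested in knockdown flies, 13 were higher in mature than in juvenile libraries and 4 lower, while 18% of all 12033 genes were called higher and 16.2% lower. The age comparisons in knockdown flies and in controls share no library, but they share 1 fit and its estimate of the spread, and same-numbered mature libraries of the 2 genotypes deviated together. AstC had the smallest p, with a log2 fold change of 2.49 (SE 0.28, edgeR adjusted p = 8.38e-06). Ms was at 1.86 (SE 0.24, adjusted p = 2.52e-05), Mip at 1.60 (SE 0.36, adjusted p = 0.00235) and sNPF at 1.12 (SE 0.21, adjusted p = 0.000674). The other higher members were Trissin (2.48), Crz (1.60), SIFa (1.45), Orcokinin (1.30), Pdf (1.22), Dh44 (0.68), AstA (0.65), Tk (0.52) and Nplp4 (3.58, from 1 and 18 reads in the juvenile libraries). The lower members were AstCC (-3.10, SE 0.63, adjusted p = 0.00125), CCHa1 (-2.40, SE 0.40, adjusted p = 0.000535), Eh (-2.08) and Nplp1 (-0.44). AstC, Ms, Mip, sNPF, AstCC and CCHa1 stayed called in every fit that left out 1 library. Without juvenile knockdown 1 the calls for AstA, Pdf, Nplp4, Crz, Eh and Orcokinin were lost, and without juvenile knockdown 2 those for AstA, Tk, SIFa, Dh44, Trissin and Nplp1. Tk, SIFa, Pdf, Nplp1 and Eh also lost theirs without at least 1 other library. With 2 juvenile knockdown libraries, 1 of them moved several values. Without juvenile knockdown 1 Trissin was at 3.66, Crz at 0.93, Pdf at 0.81, Dh44 at 1.08, Nplp4 at 2.72 and AstCC at -2.51 on the log2 scale. Without juvenile knockdown 2 Trissin was at 1.82, Crz at 2.92, Dh44 at 0.37, Nplp4 at 6.34 and Nplp1 at -0.20. AstCC was at -3.84 without mature knockdown 3.

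In control flies fewer members were called with age, and not all of them matched. Of 29 tested, 6 were higher in mature controls and 4 lower, while 12.2% of all genes were called higher and 9.67% lower. Mip was higher in mature controls (log2 fold change 1.18, SE 0.30, edgeR adjusted p = 0.00815), as were Orcokinin (1.50, SE 0.31, adjusted p = 0.00172), Capa (2.37, SE 0.45, adjusted p = 0.00115), CCHa2 (0.93, SE 0.27, adjusted p = 0.0172) and Nplp3 (0.92, SE 0.26, adjusted p = 0.0207). Nplp4, without a read in juvenile controls, was at least 30.3-fold higher in mature controls, taking 3 reads per juvenile library as the limit. CCHa1 was lower (-2.33, SE 0.37, adjusted p = 0.000454), as were ITP (-1.07, SE 0.25, adjusted p = 0.00624) and Nplp1 (-0.53, SE 0.15, adjusted p = 0.0146). Akh was lower at -2.89 (SE 0.95, adjusted p = 0.0359), but without juvenile control 3 it was at -0.74 and not called, and the call was also lost without mature control 1, 2, 3 or 4. Without mature control 5 Akh was at -3.51, and Capa was at 3.13 without juvenile control 2. The calls for Nplp1, CCHa2 and Nplp3 were also lost without 1 of the juvenile controls, and those for the other 6 held whichever library was left out.

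The leading peptides of the knockdown comparison did not pass in controls. sNPF was at -0.27 (SE 0.17, edgeR adjusted p = 0.271) with age in controls, AstC at 0.43 (SE 0.21, adjusted p = 0.159) and Ms at 0.49 (SE 0.19, adjusted p = 0.0722). The test of the difference given above is the same contrast read the other way, and it is the value that compares the 2 genotypes. Mip, Orcokinin, Nplp4, CCHa1 and Nplp1 were called in the same direction in both genotypes. With a separate weight for each age in limma-voom, 8 of the 17 calls in knockdown flies (AstC, AstCC, CCHa1, Dh44, Eh, Mip, Ms and sNPF) and 3 of the 10 in controls (CCHa1, ITP and Mip) remained.

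**Figure D4:**
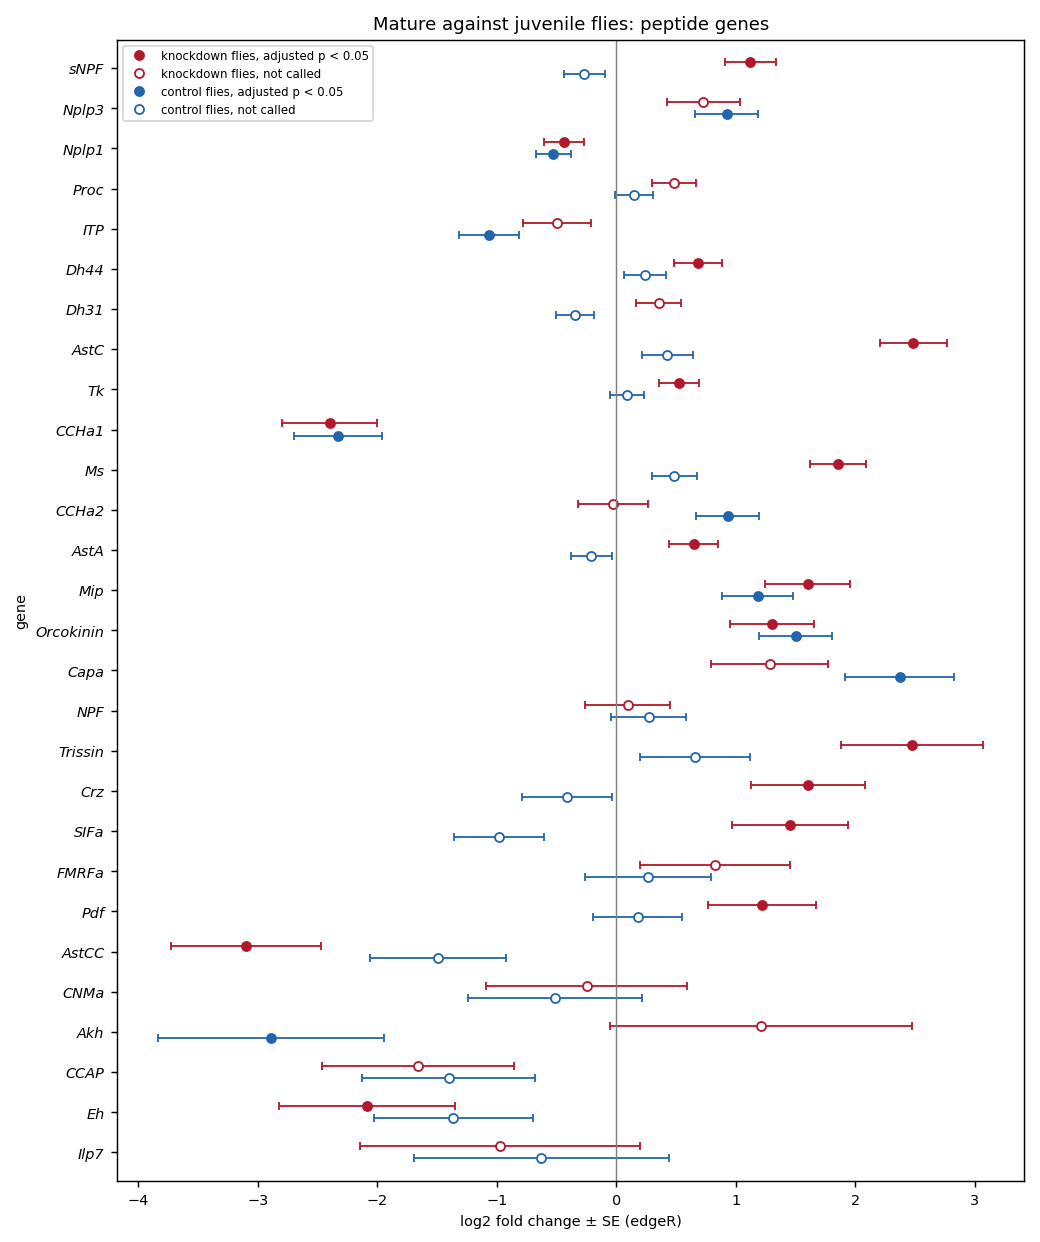
Log2 fold change of mature against juvenile flies ± SE (x axis, edgeR) for peptide genes (y axis, by mean level), with knockdown flies above and control flies below in each row; filled points passed an adjusted p under 0.05. sNPF, AstC and Ms are filled in knockdown flies (1.12, 2.49 and 1.86) and open in controls (-0.27, 0.43 and 0.49), and CCHa1 is filled at -2.40 and -2.33; Nplp4 is left out because it would stretch the axis.

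Age went with other differences between the libraries. Kenyon cell markers summed to 16300 to 22200 CPM in mature knockdown and 14500 to 21300 CPM in mature controls, against 12600 and 13000 CPM in juvenile knockdown and 13500 to 19200 CPM in juvenile controls. With age 7 of 16 were called higher in knockdown flies (median 0.60) and 3 of 16 in controls (median 0.08), and none lower. Of all genes tested, 18% were called higher and 16.2% lower in knockdown flies, and 12.2% higher and 9.67% lower in controls. Markers of other neurons summed to 1330 to 1850 CPM in mature knockdown and 1170 to 2560 CPM in mature controls, against 1530 and 2890 CPM in juvenile knockdown and 3840 to 4400 CPM in juvenile controls. Gene by gene, 7 of 10 had a positive log2 fold change with age in knockdown flies (median 0.30, 2 called higher and 1 lower). In controls 6 of 10 were positive (median 0.05, 1 called higher and 1 lower). Fat body markers summed to 2040 to 3850 CPM in mature knockdown and 2240 to 3080 CPM in mature controls, against 456 and 464 CPM in juvenile knockdown and 356 to 412 CPM in juvenile controls. Of the 8 fat body markers tested, 4 were called higher and 3 lower with age in knockdown flies (median -0.41). In controls 4 of them were called higher and none lower (median 0.78). Photoreceptor markers summed to 6270 to 9670 CPM in mature knockdown and 4990 to 10900 CPM in mature controls, and muscle markers to 4430 to 23100 CPM in mature knockdown and 4130 to 23300 CPM in mature controls. Depth and any difference in handling between the ages cannot be told apart from age, and the part of the marker shifts in the peptide values was not tested.

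More receptor genes were called lower than higher in mature flies, in both genotypes. Of 37 receptors tested, 22 were lower and 3 higher in mature than in juvenile knockdown flies, and 16 were lower and 1 higher in controls. Of all genes tested, 16.2% were called lower and 18% higher in knockdown flies, and 9.67% lower and 12.2% higher in controls. The median log2 fold change was -0.68 in knockdown flies and -0.50 in controls, beside -0.07 and -0.05 over all genes tested. MsR2, a myosuppressin receptor, had the smallest p in each, with 20, 18.7, 20.3, 21.7 and 21.8 CPM in mature knockdown, 18.4, 17, 17.5, 21.9 and 22.3 CPM in mature controls, 61.6 and 55.8 CPM in juvenile knockdown, and 51.3, 36 and 37.8 CPM in juvenile controls. All mature libraries lay below all juvenile ones, with log2 fold changes of -1.52 (SE 0.16, edgeR adjusted p = 3.78e-06) in knockdown flies and -1.11 (SE 0.14, adjusted p = 3e-05) in controls.

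Receptors of other members were among those called lower. In knockdown flies the tachykinin receptor TkR86C was at -1.34 (SE 0.17, edgeR adjusted p = 2.8e-05), the allatostatin C receptor AstC-R2 at -1.27 (SE 0.17, adjusted p = 3.25e-05) and the CCHamide 1 receptor CCHa1-R at -1.27 (SE 0.24, adjusted p = 0.00069). In controls AstC-R2 was at -0.95 (SE 0.15, adjusted p = 0.000224), the trissin receptor TrissinR at -0.98 (SE 0.14, adjusted p = 8.19e-05) and the pyrokinin 1 receptor PK1-R at -1.27 (SE 0.38, adjusted p = 0.0244). sNPF-R was lower with age in both, at -0.45 (SE 0.16, adjusted p = 0.0388) in knockdown flies and -0.52 (SE 0.14, adjusted p = 0.0134) in controls. The call for sNPF-R was lost in knockdown flies without either juvenile knockdown library or without mature knockdown 1, 2, 3 or 5, and in controls without juvenile control 1. That for PK1-R in controls was lost without juvenile control 3 or mature control 3. SPR, the receptor of the Mip peptides, picked out after its values had been seen, was the receptor called higher in both genotypes, at 0.80 (SE 0.14, adjusted p = 0.000372) in knockdown flies and 0.45 (SE 0.12, adjusted p = 0.0102) in controls. Over the alternative settings that kept every library, lower receptors numbered 13 to 22 in knockdown flies and 9 to 18 in controls.

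**Figure D5:**
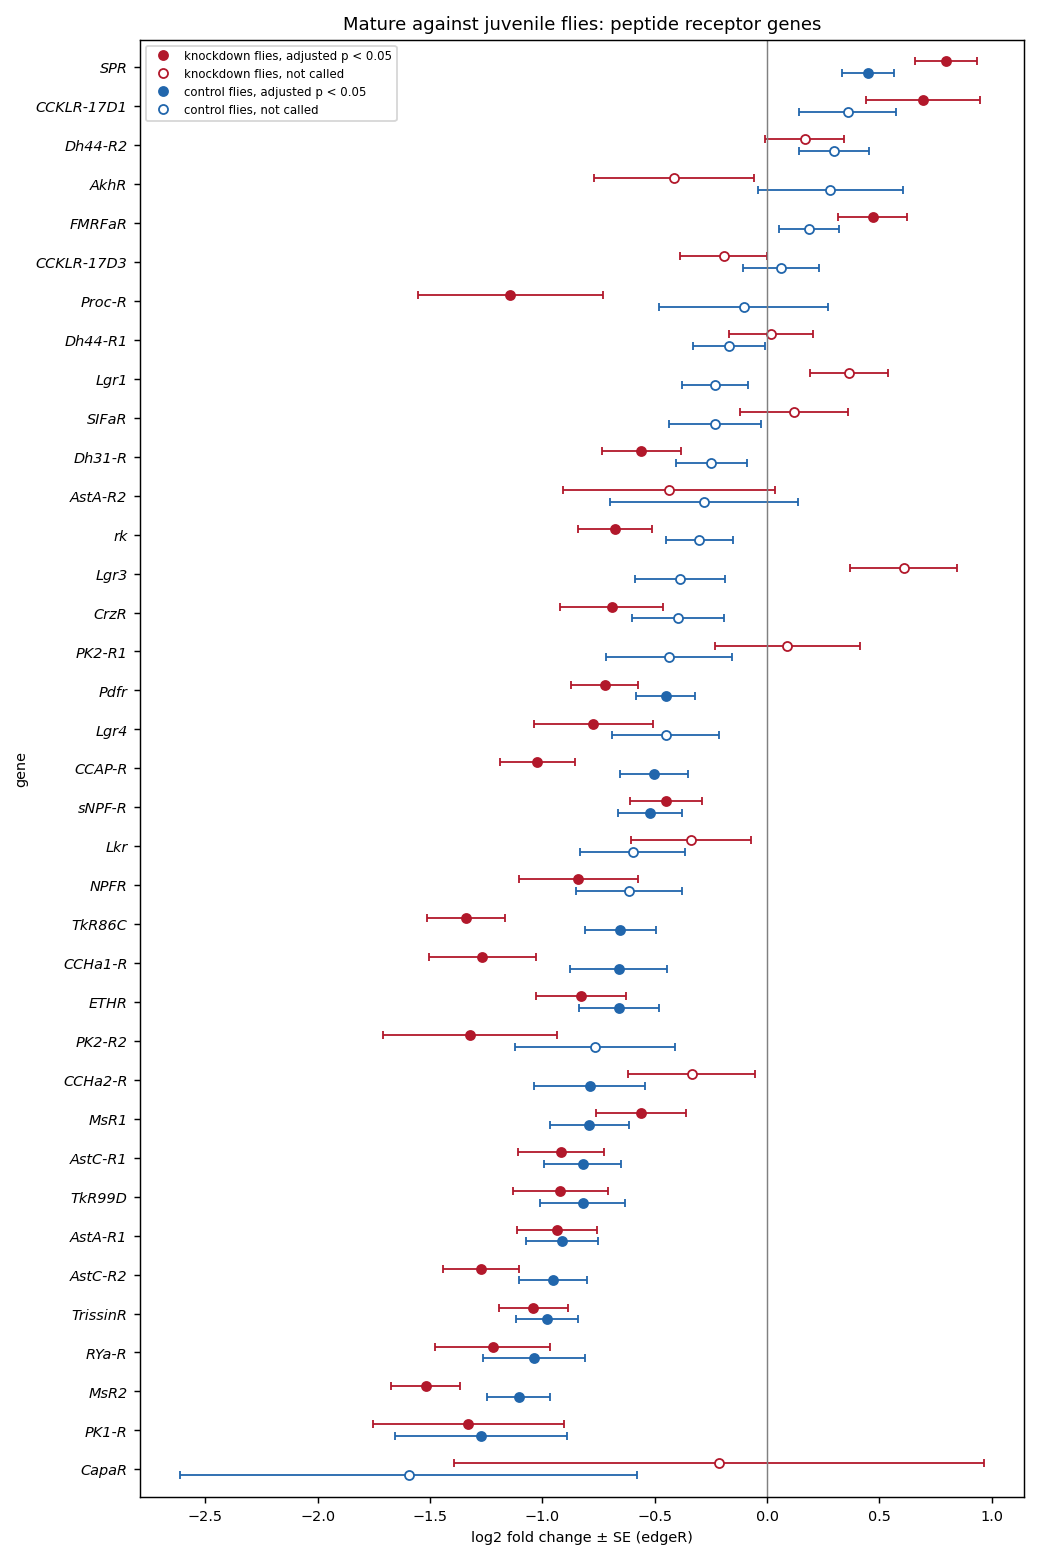
Log2 fold change of mature against juvenile flies ± SE (x axis, edgeR) for 37 peptide receptor genes (y axis), with knockdown flies above and control flies below in each row. Filled points passed an adjusted p under 0.05; 22 of those in knockdown flies and 16 in controls lie left of 0, and SPR lies right of 0 in both.

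Processing genes moved in both directions. In knockdown flies 6 of 13 were higher and 2 lower in mature than in juvenile libraries, beside 18% and 16.2% of all genes tested. The higher ones were amon (1.21, SE 0.19, edgeR adjusted p = 0.00013), 7B2 (1.40, SE 0.24, adjusted p = 0.000325), the amidating enzyme Pal2 (1.18, SE 0.18, adjusted p = 0.000106) and, among others, the neprilysin peptidases Nep1 (1.27) and Nep4 (1.60). Nep5 was among the lower ones, at -1.62. In controls Nep4 (1.30, SE 0.14, adjusted p = 5.97e-06) and Pal2 (0.48, SE 0.15, adjusted p = 0.0237) were higher, the furin-like proteases Fur1 and Fur2 and the neprilysin Nep2 were lower, and amon was at 0.23 (SE 0.15, adjusted p = 0.287). Of all genes tested in controls, 12.2% were called higher and 9.67% lower. The call for Pal2 in controls was lost without juvenile control 1 or 3 or mature control 1. That for Fur2 was lost without juvenile control 1 or mature control 5. In mature flies no receptor and no processing gene was called for knockdown in the unpaired edgeR fit. That fit had 8 of 37 receptors and 2 of 13 processing genes at an unadjusted p under 0.05, and DESeq2 called 2 and 0. In the paired fit Lgr3, svr and Nep1 were called higher in knockdown, and CCKLR-17D3 and SIFaR lower.

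Of 15 further peptide hormone genes, at most 10 could be tested. With age 1 was called higher and 4 lower in knockdown flies, beside 18% and 16.2% of all genes. In controls 1 was called higher and 3 lower, beside 12.2% and 9.67%. The higher ones were spab in knockdown flies (log2 fold change 1.11, edgeR adjusted p = 0.000833) and Gpb5 in controls (1.69, adjusted p = 0.0145, lost with limma-voom). Lst, the limostatin precursor, averaged 22.3 ± 7.34 CPM in mature knockdown and 28.1 ± 17.9 CPM in mature controls (n = 5 each), 99.2 ± 36.3 CPM in juvenile knockdown (n = 2) and 113 ± 27 CPM in juvenile controls (SD, n = 3). It was lower with age in knockdown flies (log2 fold change -2.16, SE 0.48, edgeR adjusted p = 0.00488, lost without juvenile knockdown 2) and in controls (adjusted p = 0.00626). Ilp8, the relaxin-like peptide that delays metamorphosis, was lower with age as well, at -2.77 (SE 0.52, adjusted p = 0.00073) in knockdown flies and -2.73 (SE 0.48, adjusted p = 0.000494) in controls. None of these hormones was called for knockdown at either age in the unpaired edgeR fits, and DESeq2 called 0 at either age. In the unpaired edgeR fits 1 of 5 in mature and 1 of 9 in juvenile flies had an unadjusted p under 0.05.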

How the data were processed

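Nuclear RNA from 15 libraries was measured by RNA-seq. The kits were PicoPure for RNA and Nugen Ovation for libraries, per the labels' protocols. The deposited files hold raw counts of reads per gene, whole numbers with a different total in each library. STAR 2.5.3a, HTSeq 0.7.1 and the build BDGP6 are named in the submitters' processing notes. How HTSeq was set for mode, strand and annotation is not given in the sources used here. Entries for reads outside genes (1.118% to 2.838% of all entries) and for ambiguous reads (7.077% to 7.75%) were left out, as was an entry for the UNC84 tag, which was listed in the 10 mature files only. Symbols and spans came from annotation release 115 on BDGP6.54, which held 17253 of the 17559 identifiers.

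Counts were tested in R 4.3.3 with the quasi-likelihood F-test of edgeR 4.0.16 (robust, 1 mean per group). Genes were kept by filterByExpr (minimum count 10, minimum total 15), scaled by TMM factors of all 15 libraries, and called at a Benjamini-Hochberg adjusted p under 0.05 over all genes of the fit. Knockdown was tested within each age on that age's libraries, and age and the difference of knockdown effects on all 15 libraries. Values are mean ± SD, and an SE is the log2 fold change divided by the square root of F. Alternatives were RLE and upper-quartile scaling, no and a stricter filter, DESeq2 1.42.0, limma-voom (3.58.1) with quality weights, other library sets, the replicate number as a block, an adjusted p under 0.01 and each library left out. Plain CPM was tried for levels. Levels per kb of gene span and voom weights per age for the age comparisons were chosen once the data were known. The test procedure was tested on simulated counts.

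The members and all gene lists were chosen with earlier results of these data known. A member is described in every library if it was called in any of the 5 contrasts or had a mean of at least 10 CPM, which gave 24. Of the receptor, processing and other hormone lists the text names some or all of the 6 called genes with the largest log2 fold changes per comparison. It also names sNPF-R, amon and dimm, and SPR outside this rule. Acp26Aa was left out, being at 0 in all mature knockdown libraries. Replicates differed by more than sampling noise (chi-square over its degrees of freedom at least 14.83), so all were counted as separate libraries. Same-numbered mature libraries deviated together, with correlations of their deviations from the group means of 0.163 to 0.69 in all 5 pairs, 4 of which were the best match of their number. The 2 juvenile pairs gave -0.067 and 0.023. The labels do not state what the numbers mark.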

Additional observations from a re-analysis of the deposited data

Results flagged for a closer look

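In 3 of 48 member groups of 5 libraries, 1 library stood apart from the rest by Dixon's criterion, where chance alone gives about 1 in 20. Ms was at 37.7 CPM in mature knockdown 5, against 24.2 to 27.4 CPM in the other mature knockdown libraries. Pdf was at 6.36 CPM in mature knockdown 2, against 2.54 to 3.08 CPM in the others. Eh was at 0.8 CPM in mature knockdown 3, against 0.169 to 0.348 CPM in the others.

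The knockdown effects of 3 members differed between mature and juvenile flies in the test of the difference, by 1.39 for sNPF, 2.06 for AstC and 1.37 for Ms on the log2 scale. For each the estimate was positive in mature flies and negative in juvenile flies. None of the 3 was called in mature flies in the unpaired edgeR fit (adjusted p = 0.676 for sNPF, 0.28 for AstC and 0.44 for Ms). In juvenile flies Ms was not called (adjusted p = 0.163, edgeR). With limma-voom, under either weighting, none of the 3 differences passed.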

How the results depend on the processing

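No member called in a comparison changed sign there under any alternative. Of the values that were not called, those of 19 members changed sign in at least 1 comparison and alternative, and none was called after it. In mature flies 1 member was called for knockdown. The count was 0 with upper-quartile scaling, an adjusted p under 0.01 and a fit on all 15 libraries, 3 with the replicate number as a block, and 4 with DESeq2 and with limma-voom. With 1 library left out it ranged from 0 to 1. In juvenile flies 2 were called, against 4 with no filter on low counts, 5 with the replicate block, 8 in the fit on all 15 libraries, 1 at an adjusted p under 0.01 and 0 to 3 with a library left out. Since the juvenile numbers do not pair libraries, that block is given as a value only. For the difference of effects 3 were called, against 1 with upper-quartile scaling and at an adjusted p under 0.01, 6 with DESeq2, 0 with limma-voom and with a weight per age, and 2 to 4 with a library left out. The replicate block left 2 of them and ended the call for Ms (adjusted p = 0.0591, edgeR). For age in knockdown flies 17 were called, against 11 with limma-voom, 8 with a weight per age and at an adjusted p under 0.01, 15 with the block and 11 to 19 with a library left out. For age in controls 10 were called, against 6 at an adjusted p under 0.01, 5 with a weight per age, 9 with the block and 8 to 11 with a library left out. The cause of these moves was not tested.

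Plain CPM moved 0 of 120 group means of the 30 measurable members by more than 1 SD. Upper-quartile scaling moved the median log2 fold change of all genes to 0.10 in the juvenile knockdown comparison, and in the age comparison in knockdown flies it stood at -0.20 with that scaling and -0.19 with RLE; changes of that size among members cannot be told from the scaling. Depth limits Nplp4, Akh, Eh, AstCC, Ilp7 and RYa, each of which had 3 reads or fewer in at least 1 library.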

Other observations

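In 4 of the 6 members called in every library-left-out fit of the age comparison in knockdown flies (AstC, Ms, Mip and sNPF) the level was higher in mature flies, while the neighbour of AstC on chromosome 2L, AstCC, was lower. AstCC had 2 to 54 reads per mature knockdown library and 198 and 314 reads in the juvenile knockdown libraries. The UNC84 tag itself was listed at 4610 to 9020 CPM in mature knockdown libraries and 7125 to 14760 CPM in mature controls, and the juvenile files list no value for it.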
